A study of Mus musculus with 24 samples.

Results

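The genes of cholesterol synthesis and transport were followed in the striatum of mice with the Q175 allele and with deletion of Tyrobp. The set was a named list of 31 genes, found by their symbols among the 54532 genes of the deposited count table, and it held 18 enzymes of synthesis, 6 regulators and 7 genes of transport and turnover. All 31 were among the 19667 genes with enough reads to be tested. RNA from the frozen striatum of a single hemisphere was sequenced in 24 libraries, each from its own animal, with 6 animals in each of 4 genotypes (3 male and 3 female). The genotypes were WT, Tyrobp-KO (TyrobpKO), Q175 heterozygotes (Q175) and Q175 heterozygotes with the Tyrobp deletion (Q175_TyrobpKO), all labelled as C57BL/6 with no age given. The Q175 allele carries a long CAG repeat in Htt, the mouse Huntingtin gene, and models Huntington's disease. Tyrobp, known mainly from microglia, encodes the signalling adaptor of several of their surface receptors.

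Cholesterol does not cross from the blood into the brain in useful amounts, so the brain makes its own. Synthesis runs from acetyl-CoA through mevalonate and squalene to lanosterol and then to cholesterol. Its genes are switched on by SREBP transcription factors (Srebf1 and Srebf2), which the escort protein Scap carries out of the endoplasmic reticulum when sterols are low and which the Insig proteins hold back when sterols are plentiful. Oligodendrocytes and astrocytes make much of the brain's cholesterol. Transporters such as Abca1 pass it on to lipoprotein particles, and neurons dispose of the excess by hydroxylation through Cyp46a1.

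Libraries held 25.5 to 34.6 M reads counted in genes. Levels are given as CPM, counts scaled to a common library size by TMM, which corrects for the composition of each library. Tyrobp was at 0.214 to 0.448 CPM in the libraries labelled as deleted and at 5.69 to 11.8 CPM in the others. Htt was at 137 to 178 CPM in Q175 carriers and 188 to 236 CPM in non-carriers. The summed level of 10 markers of striatal projection neurons, the main neurons of this tissue, was 5242 to 9089 CPM in non-carriers and 3336 to 5512 CPM in carriers. Markers of cortical excitatory neurons, which belong to the tissue next to the striatum, summed to between 135 and 1070 CPM over the 24 libraries and spread widely in every genotype. Choroid plexus markers stood apart at 4261 CPM in Q175 replicate 3, against at most 614 CPM in any other library. In bulk tissue, fewer cells of a type and less RNA per cell cannot be told apart.

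Per kilobase of gene, WT striatum held most RNA of Cyp46a1 and least of Fdps. Levels were in RPKM (CPM per kilobase of gene, mean ± SD, n = 6), with the lengths of the deposited table. Cyp46a1 was highest at 69.6 ± 4.1 RPKM, followed by Srebf2 at 39.1 ± 3.4 RPKM, Hmgcs1 at 35.1 ± 3.5 RPKM and Lrp1 at 32.5 ± 2.6 RPKM. The gap from Cyp46a1 to Srebf2 was larger than the spread between animals, and the steps from Srebf2 to Hmgcs1 and from Hmgcs1 to Lrp1 were close to or under an SD. Abcg1 at 23.8 ± 1.8 RPKM and Insig1 at 20.1 ± 3.4 RPKM came next. From Acat2 at 14.8 RPKM down to Sc5d at 12.1 RPKM, each of 8 genes differed from its neighbour in the order by less than the larger of their SDs. Most synthesis enzymes lay lower, with Sqle at 7.41 ± 0.84 RPKM and Lss at 3.62 ± 0.12 RPKM. Fdps, which makes farnesyl diphosphate, was lowest at 0.233 ± 0.10 RPKM, from 165 reads in the 6 WT libraries. Gm43738 and Gm22935 overlap Fdps on the same strand, so its count is uncertain. In all, 16 of the 31 genes are overlapped by another annotated gene, 5 of them on the same strand.

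**Figure D1:**
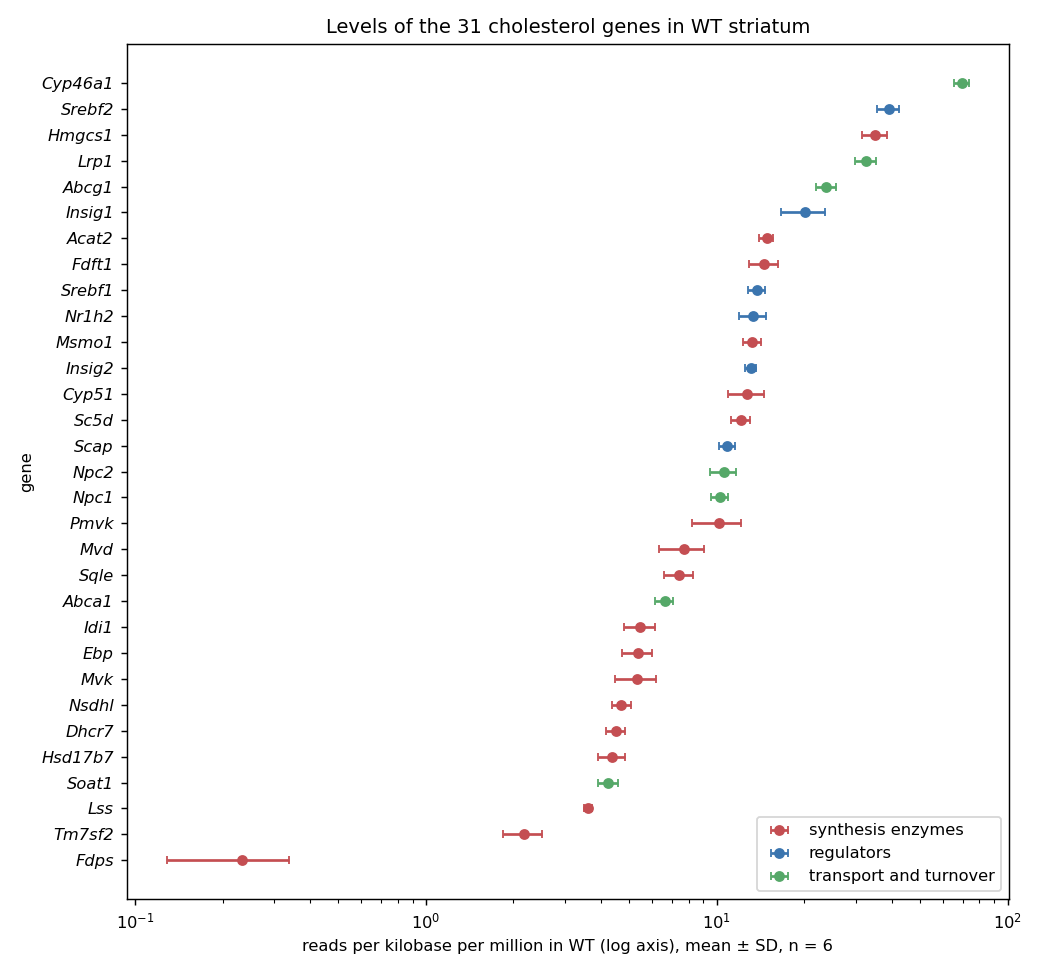
Level of each of the 31 genes in WT striatum, in RPKM on a log axis. Points are means and bars SD over 6 animals, coloured by role. Cyp46a1 leads at 69.6 RPKM and Fdps is lowest at 0.233 RPKM.

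Promoter sequence was examined because several of the enzymes moved together between animals (described further on). The window was the 250 bases before the RefSeq start of each gene on GRCm38.p6, and 26 of the 31 genes were matched. The CCAAT box, bound by the factor NF-Y and a common neighbour of SREBP sites, was searched as CCAAT on both strands. It was present in 20 of the 26 windows (76.9%), 13 of the 15 enzyme windows among them, against 33.8% of 32851 windows of this length. Those 32851 are all windows available, not matched to the set by expression, whereas each gene of the set counts once. The Idi1 and Tm7sf2 windows lie wholly in annotated exons, and the Tm7sf2 start is 9347 bases from the gene's 5' end in the deposited table. A strict sterol response element, searched as TCACNCCAC on both strands, was in 1 window, that of Hmgcs1 (3.85%, against 1.05% of all windows). The E box CACGTG was in 4 windows (15.4%, against 6.02%). No CCAAT, TCACNCCAC or E box match overlapped another in the sequences printed below. The printed windows are those of Hmgcs1, the reference gene of the covariation described further on, and of 4 genes whose RNA differed with the Q175 allele and whose window, trimmed for Acat2 to 228 bases, is free of annotated exons. Lrp1, also called and with a window free of exons, holds none of the 3 motifs and is not printed. Capitals mark the matches, with a CCAAT box on the other strand reading ATTGG. Hmgcs1 is read from chr13:119690101-119690350 (plus strand), Acat2 from chr17:12960748-12960975 (minus strand), Srebf1 from chr11:60222582-60222831 (minus strand), Abca1 from chr4:53159896-53160145 (minus strand) and Cyp46a1 from chr12:108334066-108334315 (plus strand).
Hmgcs1: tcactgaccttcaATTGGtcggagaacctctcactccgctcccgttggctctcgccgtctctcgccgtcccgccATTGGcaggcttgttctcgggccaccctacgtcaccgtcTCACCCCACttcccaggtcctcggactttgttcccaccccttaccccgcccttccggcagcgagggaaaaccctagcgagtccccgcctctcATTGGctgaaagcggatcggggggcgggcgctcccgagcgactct
Acat2: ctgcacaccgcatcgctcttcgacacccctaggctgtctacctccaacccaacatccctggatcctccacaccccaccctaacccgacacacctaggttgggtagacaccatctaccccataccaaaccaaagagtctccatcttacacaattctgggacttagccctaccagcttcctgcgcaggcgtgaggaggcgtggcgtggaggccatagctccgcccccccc
Srebf1: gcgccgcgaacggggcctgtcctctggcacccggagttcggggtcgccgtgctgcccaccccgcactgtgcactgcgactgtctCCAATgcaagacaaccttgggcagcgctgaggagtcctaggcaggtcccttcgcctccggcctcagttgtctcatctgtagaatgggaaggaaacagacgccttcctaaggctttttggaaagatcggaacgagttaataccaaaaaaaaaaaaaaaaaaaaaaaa
Abca1: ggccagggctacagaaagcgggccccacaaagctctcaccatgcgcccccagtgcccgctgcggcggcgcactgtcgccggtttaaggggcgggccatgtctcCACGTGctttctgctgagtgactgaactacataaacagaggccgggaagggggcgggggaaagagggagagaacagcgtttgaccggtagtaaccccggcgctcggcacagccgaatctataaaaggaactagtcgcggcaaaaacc
Cyp46a1: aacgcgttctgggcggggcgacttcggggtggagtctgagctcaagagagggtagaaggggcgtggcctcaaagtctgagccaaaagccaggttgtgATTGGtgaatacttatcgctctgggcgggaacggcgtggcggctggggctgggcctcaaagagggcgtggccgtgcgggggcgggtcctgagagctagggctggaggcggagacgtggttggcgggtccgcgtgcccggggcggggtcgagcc
The Hmgcs1 window holds 3 CCAAT boxes and the sterol response element. The Srebf1 and Cyp46a1 windows hold 1 CCAAT box each, the Abca1 window an E box alone, and the Acat2 window none of the 3 motifs. A match describes the letters only.

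The Q175 allele was compared with its absence within each Tyrobp genotype and, with 12 animals against 12, over both. Genes with an adjusted p under 0.05 in edgeR's quasi-likelihood test, adjusted by Benjamini-Hochberg over all genes tested, are termed called. Over both backgrounds, 7 of the 31 genes (22.6%) were called, where 18.0% of all tested genes were. Acat2, Msmo1, Srebf2 and Cyp46a1 were lower in carriers, and Srebf1, Abca1 and Lrp1 were higher. With Tyrobp present, Q175 against WT called 3 genes (9.68%, against 9.63% of all tested genes): Srebf1 higher (4.15% of all tested genes were higher), and Acat2 and Cyp46a1 lower (5.47%). With Tyrobp deleted, Q175_TyrobpKO against TyrobpKO also called 3 genes (9.68%, against 5.86% of all tested genes), Acat2, Idi1 and Msmo1, all lower. Of all tested genes, 3.08% were lower and 2.78% higher there. The shares over both backgrounds and with Tyrobp present are thus close to those of the whole table. The median log2 fold change of the 31 genes was 0.01 in Q175 against WT, -0.06 in Q175_TyrobpKO against TyrobpKO and -0.03 over both, beside medians within 0.01 of 0 for all tested genes. The animal numbers of all Q175 mice carry a prefix shared with WT replicate 3 alone, so this comparison partly sets 1 prefix against another, with too few WT animals of that prefix for a value within it. TyrobpKO and Q175_TyrobpKO share a prefix.

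Among the 18 synthesis enzymes, 2 (11.1%) fell in carriers over both backgrounds, Acat2 and Msmo1, and none rose. Of all tested genes, 9.17% were called lower there and 8.85% higher, so the share of enzymes lower was near that of the whole table. In all, 13 of the 18 had a negative log2 fold change, called or not, where 49.1% of all tested genes did. In Q175_TyrobpKO against TyrobpKO, 15 of the 18 were negative (50.4% of all tested genes) with a median of -0.12. The 3 called were 16.7%, against 5.86% of all tested genes. In that comparison 10 of 10 mature oligodendrocyte markers and 8 of 10 cortical neuron markers were also negative, with medians of -0.30 and -0.38. The cortical markers averaged 780 CPM in TyrobpKO and 591 CPM in Q175_TyrobpKO. In Q175 against WT, 10 of the 18 were negative (48.5% of all tested genes) with a median of 0.00 after rounding, and 1 was called. Tilts of sign were found in other comparisons too, with 0 enzymes called. In TyrobpKO against WT 14 were positive (50.3% of all tested genes), and in female against male 15 were negative (48.6%). For the difference in Q175 effect between the sexes 16 were positive (50.8%). In Q175_TyrobpKO against Q175, 10 were negative. The enzymes varied together between animals, so their signs are not independent.

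Acat2 (chr17:12942890-12960747, minus strand) encodes the cytosolic thiolase that joins acetyl-CoA units at the entry of the pathway. Its level ran from 34.4 to 39.3 CPM in WT (median 38.9), 32.0 to 39.5 CPM in TyrobpKO (median 35.6), 26.2 to 34.0 CPM in Q175 (median 31.5) and 28.7 to 34.9 CPM in Q175_TyrobpKO (median 30.0). The Q175 and WT ranges did not overlap, and all 12 carriers lay below the median of the non-carriers. Q175_TyrobpKO replicate 5, at 34.9 CPM, was the only carrier of that genotype inside the TyrobpKO range. Acat2 fell by 0.29 ± 0.07 (log2 fold change ± SE, adjusted p = 0.00478) in Q175 against WT and by 0.23 ± 0.07 (adjusted p = 0.0320) in Q175_TyrobpKO against TyrobpKO. Over both backgrounds it fell by 0.26 ± 0.05 and so decreased by 16.5% (adjusted p = 0.000187). The call with Tyrobp deleted was lost in 9 of 24 fits that each left out 1 library, with adjusted p up to 0.107.

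Msmo1 (chr8:64718139-64733792, minus strand) encodes the oxygenase that starts removal of methyl groups from the sterol ring. It ran from 74.9 to 90.5 CPM in WT (median 81.6), 77.2 to 94.1 CPM in TyrobpKO (median 82.2), 53.2 to 83.5 CPM in Q175 (median 69.6) and 51.1 to 70.9 CPM in Q175_TyrobpKO (median 57.2). Every Q175_TyrobpKO animal lay below every TyrobpKO animal. Q175 replicate 5, at 83.5 CPM, was the only carrier above the lowest non-carrier. The fall in Q175_TyrobpKO against TyrobpKO, -0.48 ± 0.09 on the log2 scale or 28.1% (adjusted p = 0.00255), was the largest of the 31 genes in any of the genotype comparisons. In Q175 against WT the difference was -0.28 ± 0.09 (adjusted p = 0.0636), which missed the threshold, and over both backgrounds it was -0.38 ± 0.07 (adjusted p = 0.000197).

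Idi1 (chr13:8885501-8892451, plus strand) encodes the isomerase that interconverts the isoprenoid building blocks. Its level was 15.8 to 21.9 CPM in WT (median 19.7), 16.2 to 19.97 CPM in TyrobpKO (median 19.1), 15.3 to 24.05 CPM in Q175 (median 16.8) and 12.1 to 17.8 CPM in Q175_TyrobpKO (median 14.02). Q175_TyrobpKO sat lowest and overlapped the TyrobpKO range. Idi1 fell by 0.38 ± 0.11 in Q175_TyrobpKO against TyrobpKO (adjusted p = 0.0375). The difference in Q175 against WT was -0.05 ± 0.11 (adjusted p = 0.831), and that over both backgrounds was -0.22 ± 0.08 (adjusted p = 0.0523). The call was lost in 9 of 24 fits that left out 1 library, with adjusted p up to 0.100.

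The other 15 enzymes were not called in any of these comparisons. With an unadjusted p under 0.05 in Q175_TyrobpKO against TyrobpKO were Hmgcs1, which makes the precursor of mevalonate, at -0.32 ± 0.14 (adjusted p = 0.225), Cyp51, the lanosterol demethylase, at -0.22 ± 0.08 (adjusted p = 0.114), and Sc5d, a late desaturase, at -0.16 ± 0.07 (adjusted p = 0.231). In Q175 against WT the same 3 genes were at -0.10 ± 0.14, -0.03 ± 0.08 and 0.04 ± 0.07. Sqle, the squalene epoxidase that sets the pace of the later steps, was at 0.07 ± 0.13 with Tyrobp present and -0.08 ± 0.13 with Tyrobp deleted. Pmvk, a mevalonate pathway kinase, had the highest enzyme value in the latter background, 0.22 ± 0.13. The SE of these 15 genes in Q175 against WT ran from 0.07 for Lss to 0.26 for Fdps.

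**Figure D2:**
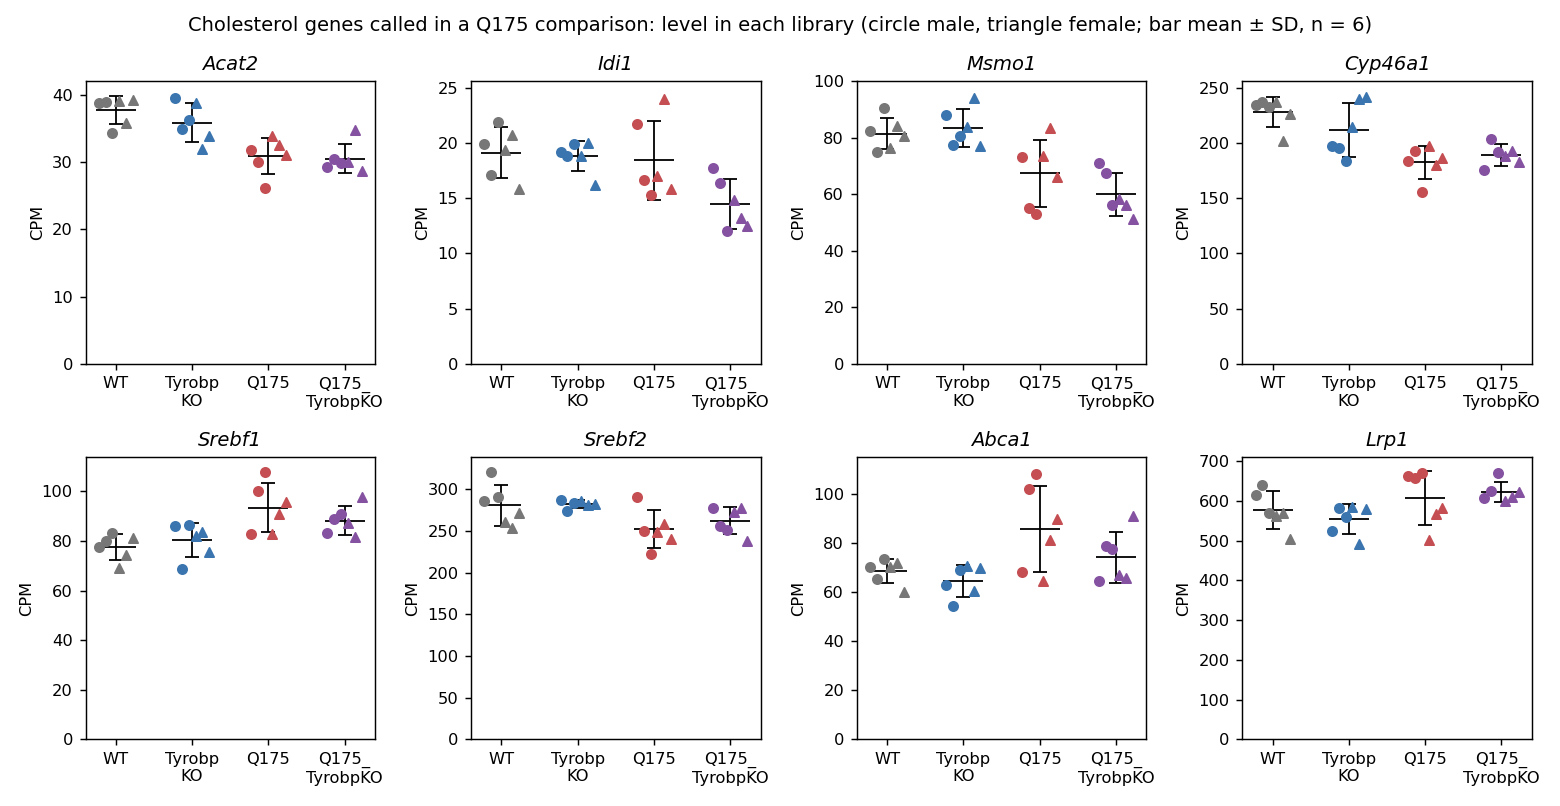
Level (CPM) of the 8 genes called in a Q175 comparison, 1 point per library (circle male, triangle female), with mean and SD over 6 animals. Acat2, Msmo1 and Cyp46a1 sit lower in both carrier genotypes, Idi1 is lowest in Q175_TyrobpKO (12.1 to 17.8 CPM), and Srebf1 sits higher in carriers.

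Of the 6 regulators, Srebf1 rose and Srebf2 fell in carriers over both backgrounds, and the other 4 were not called. Of all tested genes, 8.85% were called higher in that comparison and 9.17% lower. Srebf1 (chr11:60199089-60222581, minus strand) encodes SREBP forms best known for fatty acid synthesis. It ran from 69.1 to 83.4 CPM in WT (median 78.8), 68.8 to 86.5 CPM in TyrobpKO (median 82.8), 82.8 to 107.7 CPM in Q175 (median 93.4) and 81.5 to 98.0 CPM in Q175_TyrobpKO (median 88.1). All 12 carriers lay above the median of the non-carriers, though the ranges overlapped. Srebf1 was higher by 0.27 ± 0.07 in Q175 against WT (adjusted p = 0.0103). The value in Q175_TyrobpKO against TyrobpKO was 0.13 ± 0.07 (adjusted p = 0.292), and over both backgrounds Srebf1 rose by 0.20 ± 0.05 or 14.9% (adjusted p = 0.00345). The 2 Q175 libraries with the highest choroid plexus markers are replicate 3, which also has the highest Srebf1 level (107.7 CPM), and replicate 5. Without them, a setting chosen after seeing the data, Srebf1 in Q175 against WT was at 0.22 and was not called, while over both backgrounds it was still called, at 0.18. Rai1 overlaps Srebf1 on the opposite strand.

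Srebf2 (chr15:82147181-82205379, plus strand) encodes the SREBP that chiefly drives the cholesterol enzymes. Its level was 254.1 to 321.1 CPM in WT (median 279), 273.9 to 286.8 CPM in TyrobpKO (median 283), 222.3 to 290.8 CPM in Q175 (median 249.6) and 238 to 277.7 CPM in Q175_TyrobpKO (median 265). In 11 of 12 carriers it was below the median of the non-carriers. Srebf2 fell by 0.13 ± 0.04 over both backgrounds and so decreased by 8.67% (adjusted p = 0.0298). It was at -0.15 ± 0.06 in Q175 against WT (adjusted p = 0.104) and at -0.11 ± 0.06 in Q175_TyrobpKO against TyrobpKO (adjusted p = 0.354). The call over both backgrounds was lost in 10 of 24 fits that left out 1 library. That call was also lost without both Q175 libraries of highest choroid plexus level, and with the oligodendrocyte, astrocyte or cortical neuron marker level as a further term. Insig1, a target of SREBP that restrains it, was at -0.13 ± 0.12 with Tyrobp present and -0.29 ± 0.12 with Tyrobp deleted (adjusted p = 0.608 and 0.191). Insig2, its relative, was at 0.10 ± 0.04 over both backgrounds (adjusted p = 0.0573). Scap at -0.01 ± 0.03 and Nr1h2, a sterol-sensing nuclear receptor, at 0.08 ± 0.05 were not called there either.

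Transport and turnover held the other changes, with 2 of 7 genes higher and 1 lower over both backgrounds (8.85% and 9.17% of all tested genes). Cyp46a1 (chr12:108334381-108362234, plus strand) encodes the neuronal hydroxylase that makes cholesterol able to leave the brain. It ran from 202 to 238 CPM in WT (median 234), 184 to 242 CPM in TyrobpKO (median 206), 155 to 198 CPM in Q175 (median 185) and 175.4 to 204 CPM in Q175_TyrobpKO (median 190.2). No Q175 animal reached the WT range. Within the range of all carriers, which reached 204 CPM, lay 3 TyrobpKO animals, all male, and WT replicate 5 at 202 CPM. Cyp46a1 fell by 0.32 ± 0.07 or 20.1% in Q175 against WT (adjusted p = 0.00151). In Q175_TyrobpKO against TyrobpKO it was at -0.16 ± 0.07 (adjusted p = 0.164), and over both backgrounds it fell by 0.24 ± 0.05 (adjusted p = 0.000370). The markers of striatal projection neurons were also lower in carriers, with 8 of 10 called lower over both backgrounds (9.17% of all tested genes). Their median log2 fold change was -0.60. Their part in the Cyp46a1 result was not tested.

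Abca1 (chr4:53030787-53159895, minus strand) encodes the transporter that loads cholesterol onto lipoprotein particles. Its level was 60.0 to 73.7 CPM in WT (median 70.2), 54.3 to 70.6 CPM in TyrobpKO (median 66.0), 64.8 to 108 CPM in Q175 (median 85.5) and 64.6 to 91.2 CPM in Q175_TyrobpKO (median 72.3). Q175 replicates 2 and 3, above 100 CPM, were the highest, and 7 of 12 carriers lay above the median of the non-carriers, 69.5 CPM. Over both backgrounds Abca1 rose by 0.26 ± 0.08 or 19.8% (adjusted p = 0.0220). Without Q175 replicates 3 and 5, those of highest choroid plexus level in Q175, it was at 0.22, not called (adjusted p = 0.0582). Q175_TyrobpKO replicates 4 and 6, at 587 and 614 CPM of those markers, stayed in that fit, above Q175 replicate 5 at 483 CPM. With the oligodendrocyte term Abca1 was at 0.25, not called (adjusted p = 0.0566). It was at 0.32 ± 0.11 with Tyrobp present (adjusted p = 0.0703) and 0.20 ± 0.11 with Tyrobp deleted (adjusted p = 0.355).

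Lrp1 (chr10:127538161-127621148, minus strand) encodes a large endocytic receptor for lipoproteins. It ran from 504 to 639 CPM in WT (median 570.0), 492 to 584 CPM in TyrobpKO (median 569.6), 502 to 670.5 CPM in Q175 (median 619) and 599 to 669 CPM in Q175_TyrobpKO (median 617). Every Q175_TyrobpKO animal lay above every TyrobpKO animal, while Q175 and WT overlapped widely. Lrp1 rose by 0.12 ± 0.04 over both backgrounds, just inside the threshold (adjusted p = 0.0495), and the call was lost in 16 of 24 fits that left out 1 library. It was at 0.17 ± 0.06 in Q175_TyrobpKO against TyrobpKO (adjusted p = 0.103). The remaining 4 genes were not called over both backgrounds: Soat1, which stores cholesterol as esters, at 0.10 ± 0.05, the lysosomal exporters Npc1 at 0.07 ± 0.05 and Npc2 at 0.10 ± 0.06, and the exporter Abcg1 at -0.02 ± 0.04.

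Whether the effect of the Q175 allele differed with Tyrobp genotype was tested as an interaction, and 0 of the 31 genes and 0% of all tested genes were called (edgeR, with 2 of the 31 at an unadjusted p under 0.05). Those 2 were Idi1 at -0.33 ± 0.16 and Nsdhl, a sterol dehydrogenase, at -0.27 ± 0.13, both with an adjusted p of 0.999. The calls made in a single background are therefore not shown to differ from the other background. Tyrobp deletion itself was compared without the Q175 allele and with it. In TyrobpKO against WT, 0 of 31 genes were called (0.117% of all tested genes), and Sc5d alone had an unadjusted p under 0.05, at 0.16 ± 0.07 (adjusted p = 0.749). In Q175_TyrobpKO against Q175, 0 of 31 were called (0.158% of all tested genes). Idi1 at -0.35 ± 0.11 (adjusted p = 0.589) and Cyp51 at -0.17 ± 0.08 (adjusted p = 0.827) had an unadjusted p under 0.05 there. DESeq2 and limma-voom also called 0 genes in each of these comparisons. The animal-number prefix follows the deletion in every animal, so the 2 cannot be told apart.

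Between females and males, 0 of 31 genes were called (0.0814% of all tested genes), with Fdps at -0.59 ± 0.19 and Lrp1 at -0.12 ± 0.04 at an unadjusted p under 0.05 (adjusted p = 0.807 and 0.966). The Q175 effect was not called as different between the sexes for any of the 31 genes (0% of all tested genes). Npc1, at 0.21 ± 0.09 (adjusted p = 0.998), was the only one with an unadjusted p under 0.05. DESeq2 and limma-voom called 0 in both comparisons as well.

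**Figure D3:**
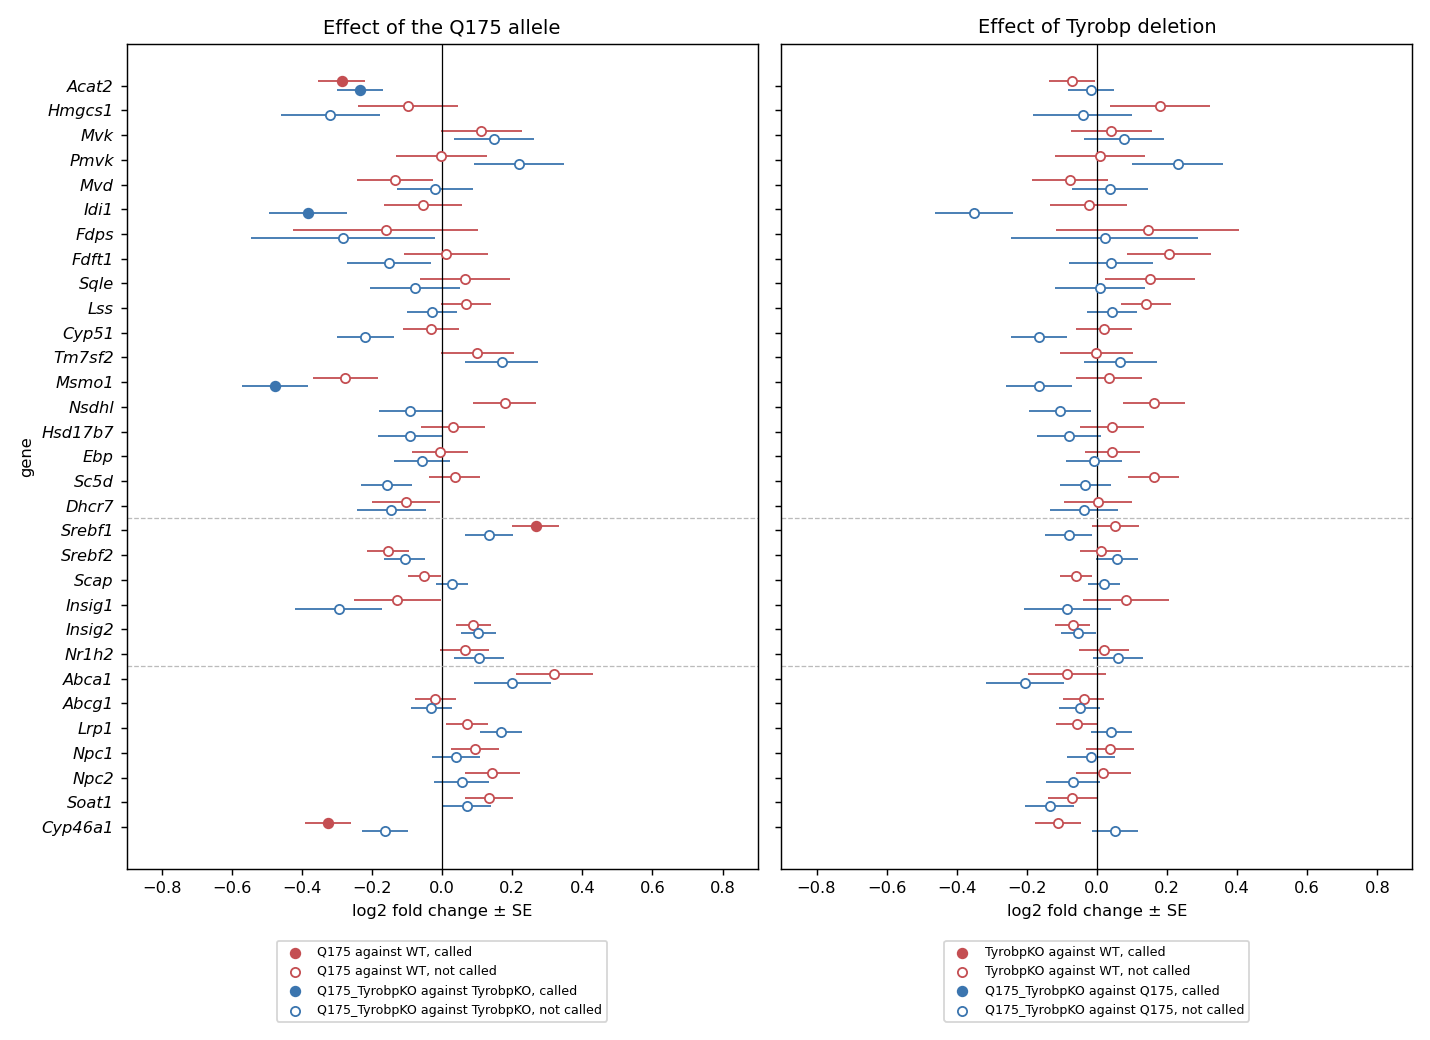
Log2 fold change and SE of each gene, in order of synthesis enzymes, regulators, and transport and turnover, for the Q175 allele (left) and for Tyrobp deletion (right). Filled points are called at an adjusted p under 0.05. Of the 31 genes, 3 are filled in each Q175 comparison and 0 in either deletion comparison.

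Some glial markers also differed with the Q175 allele. Astrocyte markers summed to 3625 to 4257 CPM in carriers and 4484 to 5128 CPM in non-carriers, with no overlap. Over both backgrounds, 6 of the 10 were called lower and 1 higher, where 9.17% and 8.85% of all tested genes were. The 3 of highest level, the glutamate transporters Slc1a2 and Slc1a3 and the glycolytic enzyme Aldoc, were at -0.37 ± 0.04, -0.14 ± 0.04 and -0.22 ± 0.05. With the astrocyte marker level as a further term, Acat2 at -0.33, Srebf1 at 0.33 and Cyp46a1 at -0.30 were still called over both backgrounds. Msmo1 at -0.31 (adjusted p = 0.0511), Abca1 at 0.34 (adjusted p = 0.0654), Srebf2 and Lrp1 were not. That setting called 0 genes in Q175_TyrobpKO against TyrobpKO. Mature oligodendrocyte markers summed to 8107 to 12307 CPM in carriers and 8985 to 14706 CPM in non-carriers, and 4 of the 10 were called lower over both backgrounds and none higher. The myelin gene Mobp at -0.38 ± 0.08 was called and Mbp at -0.23 ± 0.09 (adjusted p = 0.0701) was not. With the oligodendrocyte level as a further term, Msmo1 at -0.43 was the 1 gene of the set still called in Q175_TyrobpKO against TyrobpKO. Precursor and newly formed oligodendrocyte markers overlapped between carriers (421 to 593 CPM) and non-carriers (419 to 587 CPM), with 1 of 10 called.

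Between animals, the synthesis enzymes varied together. Each gene's log2(CPM + 0.5) was taken as its residual from an additive fit of genotype and sex, in which a difference between the sexes particular to a genotype remains, and Hmgcs1 was set against the other 30 genes over the 24 libraries. Pearson's r with Hmgcs1 was 0.920 for Sqle (Spearman's rho 0.940), 0.885 for Fdft1, the squalene synthase (rho 0.793), 0.838 for Dhcr7, the enzyme of the last step (rho 0.801), 0.801 for Sc5d (rho 0.791) and 0.775 for Insig1 (rho 0.763). Abca1 ran the other way at -0.790 (rho -0.748). Permutation p-values within genotype and sex, adjusted over the 30 relations, were 0.0005 for Sqle (rho 0.0006), 0.0025 for Fdft1 (rho 0.00587), 0.0005 for Dhcr7 (rho 0.0016), 0.0005 for Sc5d (rho 0.0009), 0.00198 for Insig1 (rho 0.00312) and 0.0185 for Abca1 (rho 0.0178). Of the 30 genes, 15 had an adjusted p under 0.05 by r, 11 of them enzymes. An r above 0.5 was found for 11 of 17 enzymes, against 12.3% of all tested genes, though 0 of the 17 were among the 100 genes of highest r. Leaving out the 2 libraries farthest from the median of Hmgcs1, Q175 replicates 2 and 3, gave 0.921 for Sqle, 0.847 for Fdft1, 0.817 for Dhcr7, 0.775 for Sc5d, 0.761 for Insig1 and -0.722 for Abca1. Within the 12 animals with the deletion and its prefix, Sqle was at 0.968 and Abca1 at -0.771, and within the other 12 at 0.909 and -0.803.

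In the animals at the extremes, the pattern covered most of the pathway. TyrobpKO replicate 6 had 18 of 18 enzymes below the median of its genotype and TyrobpKO replicate 1 had 0. Q175_TyrobpKO replicate 6 had 17 below and replicate 1 had 1. In Q175, replicate 3 had 16 below and replicates 1 and 5 had 4 each. In WT, replicate 4 had 15 below and replicate 1 had 5. Other animals lay between, such as TyrobpKO replicate 5 with 9 and Q175_TyrobpKO replicate 2 with 8. Hmgcs1 spanned 113 to 200.0 CPM in Q175 and 115 to 189.9 CPM in Q175_TyrobpKO, against 133 to 178 CPM in WT and 155 to 213 CPM in TyrobpKO.

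The cortical neuron markers followed the same order of animals. Their mean log2 level, treated in the same way, correlated with Hmgcs1 at r = 0.914 (rho 0.944), with Sqle at 0.887 (rho 0.916) and with Abca1 at -0.807 (rho -0.758). Permutation p-values adjusted over the 31 genes were 0.00331 (rho 0.00233), 0.00331 (rho 0.00233) and 0.0114 (rho 0.016), and without the 2 libraries farthest from the median of the marker level r was 0.925, 0.886 and -0.716. All 18 enzymes had a positive r with the cortical level, and 12 of them lay above 0.5, against 11.96% of all tested genes. With the cortical level removed from both genes, the relations with Hmgcs1 were weaker. Sqle was then at r = 0.581, Fdft1 at 0.611, Sc5d at 0.588, Dhcr7 at 0.461, Insig1 at 0.165 and Abca1 at -0.218. The median r of the 17 enzymes went from 0.641 to 0.267, and 5 of them were above 0.5, against 3.31% of all tested genes. With the cortical level as a further term in the test, chosen after seeing the data, Q175 against WT called 5 of the 31 genes in place of 3: Msmo1 at -0.25 (adjusted p = 0.0231) and Abca1 at 0.23 (adjusted p = 0.0184) joined Acat2, Srebf1 and Cyp46a1. Over both backgrounds that term left 5 called, without Srebf2 and Lrp1. In Q175_TyrobpKO against TyrobpKO the 3 calls were the same genes.

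**Figure D4:**
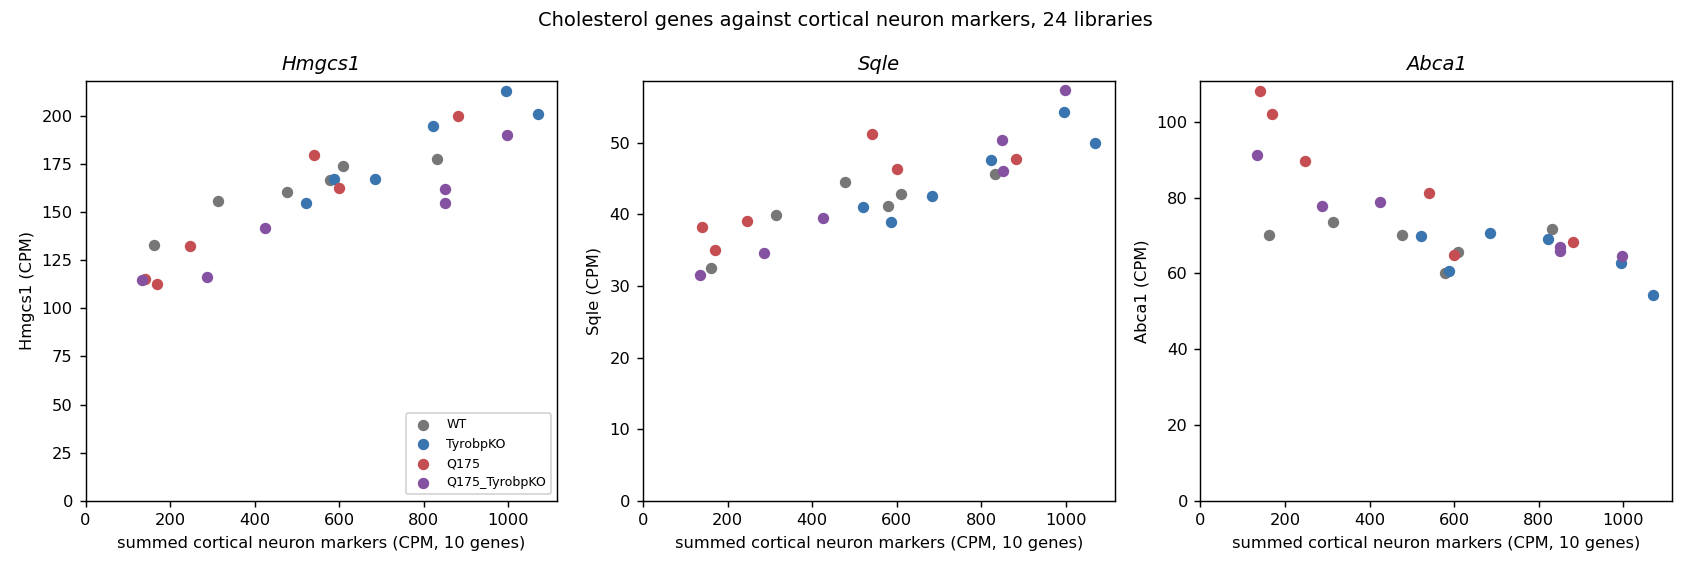
Level (CPM) of Hmgcs1, Sqle and Abca1 in each of the 24 libraries against the summed level of 10 cortical neuron markers (CPM, 135 to 1070), coloured by genotype. Hmgcs1 and Sqle rise along the axis and Abca1 falls over the 24 libraries.

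Other sterol genes, a list of 32 of which 30 were tested, showed a share of calls near that of the set, 7 of 30 over both backgrounds (5 higher, 2 lower; 23.3%, against 18.0% of all tested genes). The list's median log2 fold change was 0.00 after rounding. Mbtps1, the protease that makes the first cut in SREBP, fell by 0.30 ± 0.05 (adjusted p = 1.86e-05). Lcat, which esterifies cholesterol on lipoproteins, fell by 0.44 ± 0.08 (adjusted p = 0.000205). Both were also lower in each background alone, by 0.35 and 0.26 for Mbtps1 and by 0.46 and 0.42 for Lcat with Tyrobp present and with Tyrobp deleted. With Tyrobp present, the Lcat call was lost without both Q175 libraries of highest choroid plexus level (adjusted p = 0.0646) and with the astrocyte term (adjusted p = 0.0588). With Tyrobp deleted, it was lost with the oligodendrocyte term, with the astrocyte term, at -0.11 (adjusted p = 0.818), and without any 1 of TyrobpKO replicates 1, 3 and 5 and Q175_TyrobpKO replicates 3, 4 and 5. There the Mbtps1 call was lost without TyrobpKO replicate 5 or 6 and with the astrocyte term, at -0.34 (adjusted p = 0.0518). Higher over both backgrounds were the transporters Abca2 at 0.15 ± 0.05 and Abcg4 at 0.12 ± 0.04, the oxysterol hydroxylase Cyp7b1 at 0.28 ± 0.09 and the cholesteryl ester hydrolase Nceh1 at 0.13 ± 0.04. The Nceh1 call was lost in 11 of 24 fits that left out 1 library, and that of Cyp7b1 in 5, those without TyrobpKO replicate 1 and those without replicate 2 or 3 of Q175 or replicate 2 or 6 of Q175_TyrobpKO. Without both Q175 libraries of highest choroid plexus level, Cyp7b1 at 0.25 (adjusted p = 0.0807) and Abca2 at 0.13 (adjusted p = 0.0609) were not called. The astrocyte term ended the calls of Cyp7b1 at 0.39, Nceh1 at 0.18 and Abcg4 at 0.16, values above those of the main fit. The oligodendrocyte term ended them at 0.24, 0.13 and 0.09. The astrocyte term left Lcat at -0.22 over both backgrounds, not called, and Mbtps1 was called there under every alternative run.

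Of 14 fatty acid synthesis genes, many of them targets of Srebf1, 4 fell and none rose over both backgrounds (28.6%, against 18.0% of all tested genes), with a list median of -0.07. The desaturases Fads1 and Fads2 were each at -0.21, with SE 0.03 and 0.05 (adjusted p = 1.86e-05 and 0.00175). The desaturase Scd2 fell by 0.14 ± 0.05 (adjusted p = 0.0303), and Thrsp, a lipogenic regulator, fell by 0.33 ± 0.11 (adjusted p = 0.0438). Of 24 fits that each left out 1 library, 9 lost the Scd2 call and 16 that of Thrsp. The astrocyte term left Scd2 at -0.01 (adjusted p = 0.924), Thrsp at -0.24 (adjusted p = 0.461) and Fads2 at -0.12 (adjusted p = 0.323), while Fads1 was still called at -0.17 (adjusted p = 0.0186). Scd1 at -0.19 ± 0.07 and Acaca, the committing carboxylase, at 0.10 ± 0.05 were not called. Fads1 was lower in each background alone, and Fads2 in Q175_TyrobpKO against TyrobpKO. With Tyrobp deleted, the astrocyte term ended both calls, and that of Fads2 was also lost with the oligodendrocyte term and without TyrobpKO replicate 5.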

How the data were processed

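The authors deposited 1 table of raw read counts per gene for 24 striatum libraries. The submitters' processing notes name STAR, featureCounts and DESeq2, with no versions, and the build GRCh38, a human build, while the deposited identifiers are mouse ones. Of 54532 identifiers, 54495 were in GENCODE M21 (GRCm38), 53585 (98.3%) with the same chromosome, start and end. The deposited table also gives gene positions and lengths, and coordinates are printed as it gives them, counted from 1. Use of strand in counting is not given in the sources used here, so counts of overlapping genes are uncertain. The labels give each library its own animal, and the replicate numbers used here are in accession order (1 to 3 male, 4 to 6 female) and only name a library.

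The main test was the quasi-likelihood test of edgeR 4.0.16 (R 4.3.3; robust fit, TMM, filterByExpr on genotype). All 24 libraries entered 1 fit with genotype and sex, and p-values were adjusted by Benjamini-Hochberg over 19667 genes. For the sex interaction, each combination of genotype and sex had its own mean. The biological coefficient of variation was 16.2%. SE is the log2 fold change over the root of F. DESeq2 1.42.0 and limma 3.58.1 (voom) were alternatives. Covariation used 100000 permutations within genotype and sex, 2-sided. Promoters are RefSeq's (GRCm38.p6).

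The 31 genes, the 2 further gene lists and the 9 lists of 10 markers were chosen with earlier results of these data known. All 31 may be named with their test values, called or not. Level ranges in every genotype are given for those called in a genotype comparison and for Hmgcs1. Each further list gives its 6 genes of smallest p in carriers against non-carriers. Marker lists give counts, sums and, for glia, genes among the 3 of highest level, of which 1 is not reported here. The microglia and neuron lists (0 and 1 of 10 called in carriers), endothelial list (7 of 10, all lower) and choroid plexus list (9 of 10, all higher) were checked beside them. In carriers against non-carriers, 18.0% of all tested genes were called.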

Additional observations from a re-analysis of the deposited data

Results flagged for a closer look

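In 7 of 124 groups of 6 libraries (31 genes in 4 genotypes), the highest or lowest library stood apart from the rest of its group by Dixon's criterion. Chance gives about 1 in 20, or 6.2 groups here. Acat2 in Q175_TyrobpKO replicate 5 was at 34.9 CPM, above 28.7 to 30.5 CPM in the other 5 libraries. Cyp46a1 in WT replicate 5 was at 202 CPM, below 226.8 to 237.8 CPM. Ebp, the sterol isomerase, was at 15.2 CPM in WT replicate 6, above 11.3 to 12.8 CPM. Fdps was at 1.81 CPM in WT replicate 2, above 0.527 to 1.01 CPM. Idi1 was at 16.2 CPM in TyrobpKO replicate 6, below 18.8 to 19.97 CPM, in the animal whose 18 enzymes all lay below their genotype's median. Lrp1 was at 669 CPM in Q175_TyrobpKO replicate 3, above 599 to 624 CPM. Lss, the lanosterol synthase, was at 37.6 CPM in Q175_TyrobpKO replicate 6, below 42.2 to 44.8 CPM, in an animal with 17 of 18 enzymes below the median.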

How the results depend on the processing

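No paired analysis was possible because the labels give no replicate numbers that pair animals across genotypes. Of the 31 genes, Q175 against WT called 3, and 5 by the DESeq2 Wald test, 0 in females alone, 5 with the cortical neuron level as a term and 3 to 5 with 1 library left out (5 without Q175 replicate 1). Q175_TyrobpKO against TyrobpKO called 3, and 0 in males alone, 1 in females alone, 1 with the oligodendrocyte level, 0 with the astrocyte level and 1 to 4 with 1 library left out (1 without TyrobpKO replicate 1, 2, 3 or 4 or Q175_TyrobpKO replicate 3, 4 or 6). Carriers against non-carriers called 7, and 3 in males alone, 2 in females alone, 3 with the astrocyte level and 5 to 9 with 1 library left out. The cause was not tested, other than that fits in 1 sex hold 3 animals a genotype. Without both Q175 libraries of highest choroid plexus level, Q175 against WT called 2 and carriers against non-carriers 5. This setting and the cortical term were chosen after seeing the data. The other 5 comparisons called 0 under every alternative run, and no result changed direction. A comparison of the sexes could not be made within 1 sex. The Cyp46a1 call in carriers was kept under every alternative run, and that of Msmo1 under all but the astrocyte level. Scaling by DESeq2 size factors moved the median of all genes by under 0.01 on the log2 scale. The errors rest on 6 animals a genotype and on 25.5 to 34.6 M reads a library, and Fdps had few reads, 165 in WT. Which of these limits weighs more was not tested.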
